A study of Mus musculus with 6 samples.

Results

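The 44 genes described here encode enzymes that oxidise carbon in mitochondria: 5 subunits of the pyruvate dehydrogenase complex, 20 genes of the tricarboxylic acid (TCA) cycle with pyruvate carboxylase, and 19 genes of fatty acid oxidation. They were taken by symbol from a pathway list, a rule that uses no measured value, and all 44 were found among the 35458 gene identifiers of the RNA-seq data. The cells were CD8+ T cells from mouse spleen. The 3 control libraries came from mice labelled Cd4cre, and the 3 knockout (KO) libraries from mice labelled Cd4creGlut10fl/fl. Both groups therefore carry the Cre transgene, which is driven by Cd4 regulatory sequence and acts in developing T cells, the precursors of CD8+ cells included. Glut10 is the protein of Slc2a10, a hexose transporter. The series title names a lymphoma, which the sample labels do not mention. Age, sex and treatment are not given in the labels, and neither is whether each library had its own mouse, so a p-value covers only the variation among these 6 libraries, part of which may be technical.

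Pyruvate made by glycolysis enters the mitochondrion and is converted to acetyl-CoA by the pyruvate dehydrogenase complex. Fatty acids enter through the carnitine shuttle, whose outer enzyme is carnitine palmitoyltransferase 1, and are shortened to acetyl-CoA by repeated rounds of dehydrogenation, hydration, oxidation and thiolysis. The TCA cycle oxidises acetyl-CoA and passes electrons to the respiratory chain. Resting and memory T cells are known for their reliance on this oxidation, and activated T cells for adding glycolysis to it. Not every listed enzyme is mitochondrial: Aco1 encodes the cytosolic aconitase, Idh1 the cytosolic and peroxisomal isocitrate dehydrogenase, Mdh1 the cytosolic malate dehydrogenase and Acaa1a a peroxisomal thiolase.

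The values are FPKM (fragments scaled to gene length and to the size of the library), and values in a row always follow the numbers of the libraries, first to last. Library totals implied by the steps between low values were 11840600, 15020100 and 15036300 fragments for the controls, compared with 3420280, 14683400 and 3004550 for KO, so counting error is largest in KO 1 and KO 3. Those shallow libraries also had the most genes at 1 FPKM or more, 18934 and 19268, against 12200 to 13713 in the other 4. Slc2a10 had 4, 2 and 2 implied reads over the controls and 0 in each KO library, too few to check the deletion. Markers of CD8+ T cells were present in all libraries, with Cd8a between 30.3 and 252 FPKM and Cd3e between 13.7 and 62.9. The mean log2(FPKM + 1) of 12 T cell markers took values of 6.80, 5.15 and 4.88 over the controls, compared with 6.72, 7.36 and 6.60 over KO. All 12 neutrophil markers had lower means in the KO group, and their summed FPKM took values of 424, 15720 and 29100 over the controls, compared with 237, 67.9 and 623 over KO. The 10 macrophage and monocyte markers summed to 2009, 4477 and 4513 FPKM over the controls, compared with 861, 349.9 and 2029 over KO, and their mean log2 level was lowest in KO 2, at 2.46 against 4.55 to 5.59 elsewhere, and highest in KO 3. Of these 10 markers, 6 had lower and 4 higher means in KO, and Lyz2 carried most of the sum. Summed erythroid markers reached 2206 and 1007 FPKM in control 2 and 3 and at most 33.8 elsewhere, and summed B cell markers, with higher KO means for 6 of 6, came to 39.4, 15.3 and 9.67 FPKM over the controls, compared with 74.1, 42.7 and 53.8 over KO. In bulk samples, fewer cells of a type and less RNA per cell cannot be told apart.

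No gene of mitochondrial carbon oxidation passed the test between KO and control cells. Differences were tested with limma on log2(FPKM + 1), so a log2 difference is on that scale throughout. Of the 44 genes, 43 had at least 1 FPKM in at least 3 libraries and were tested, and Cpt1b was too low. Of these 43, 0 passed an adjusted p of 0.05 (Benjamini-Hochberg over all 13956 tested genes, of which 0% passed). The smallest adjusted p by limma was 0.417, shared by Cpt1a and Dld, of which Cpt1a had the smaller unadjusted p. At an unadjusted p under 0.05 there was 1 of 43, or 2.33%, against 11.8% of all tested genes (6.46% lower and 5.33% higher in KO). With 1 library left out, this count ran from 0 (without control 3 or KO 3) to 5 (without control 1) for the 43 genes. For all tested genes it ran from 493 (178 higher, without control 3) to 3675 (2620 higher, without KO 2), with 3057 without control 1. KO and control libraries did not overlap for 2 of 43, Cpt1a (lower in KO) and Hadhb (higher), or 4.65%, against 16.1% of all tested genes. limma-voom on rounded implied reads, which do not come out whole for Cpt1a and 4 others of the 43, also passed 0, with 1 at an unadjusted p under 0.05.

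Estimates were higher in KO for 23 of the 43 genes and lower for 20, with a median log2 difference of 0.04, while 56.9% of all tested genes had higher estimates and their median was 0.10. The members are all protein-coding, and among the 10826 protein-coding genes tested 51.7% had higher estimates, with a median of 0.02. For 38 of 43 genes (88.4%) the estimate lay within 0.5 of 0, against 56.4% of all tested genes and 64.1% of the protein-coding ones. The members were also more abundant, with a median level of 18.6 FPKM against 8.2, and the part of abundance in this gap was not tested. For 27 genes the single-gene 95% interval of the difference lay inside -1 to 1, so a 2-fold difference on this scale was outside it. For the other 16 the interval reached -1 or 1, and the widest, that of Idh1, ran from -2.98 to 0.97. After quantile normalization, which moved the median of all tested genes by -0.22, from 0.10 to -0.12, only 11 of 43 estimates were higher in KO. Relative to the median of all tested genes, 15 members lay above it with FPKM as deposited and 19 after quantile normalization. With FPKM as deposited, 23 of 43 lay above the median of the protein-coding genes alone.

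**Figure D1:**
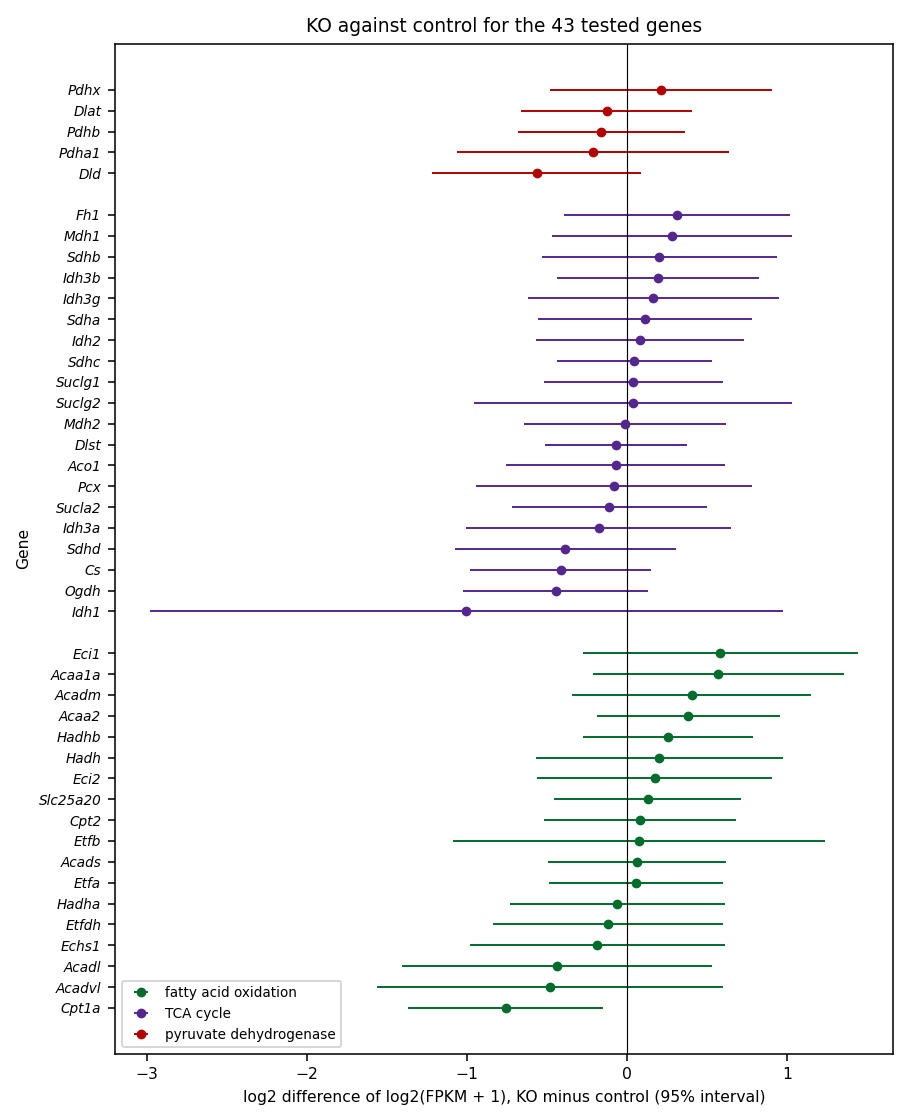
Points are log2 differences of log2(FPKM + 1), KO minus control, for the 43 tested genes with 3 libraries per group, and bars are single-gene 95% intervals from limma. All intervals cross 0 except that of Cpt1a, and no gene passed after adjustment.

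The members were expressed at very different levels. FPKM is per length, so levels of different genes can be set side by side, with the limit that the length is that of all exons of a gene joined. That joined length was up to 5.32 times the longest coding transcript, for Echs1, so genes with many partial transcripts can have understated levels. Mean levels were at least 10 FPKM for 34 of the 43 tested genes. Sdhd, a membrane anchor of succinate dehydrogenase, was highest in the control group at 102 ± 27.5 FPKM (SD, n = 3), and Pdhb and Sdha followed at 77.7 ± 11.9 and 64.7 ± 16.7. Pdhx, Suclg2, Hadh, Eci2, Cpt2 and Etfdh had control means between 5.03 and 7.72 FPKM. The spread over libraries was small for most. The median ratio of the highest to the lowest of the 6 libraries was 1.90, against 2.91 for all tested genes. All tested genes had a lower median level, 8.2 FPKM against 18.6, and the part of abundance in this gap was not tested. The spread was least for Dlst, the succinyltransferase of the 2-oxoglutarate dehydrogenase complex. Dlst was at 16.5, 15.6 and 16.9 FPKM over the controls, compared with 15.7, 15.2 and 15.7 over KO.

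**Figure D2:**
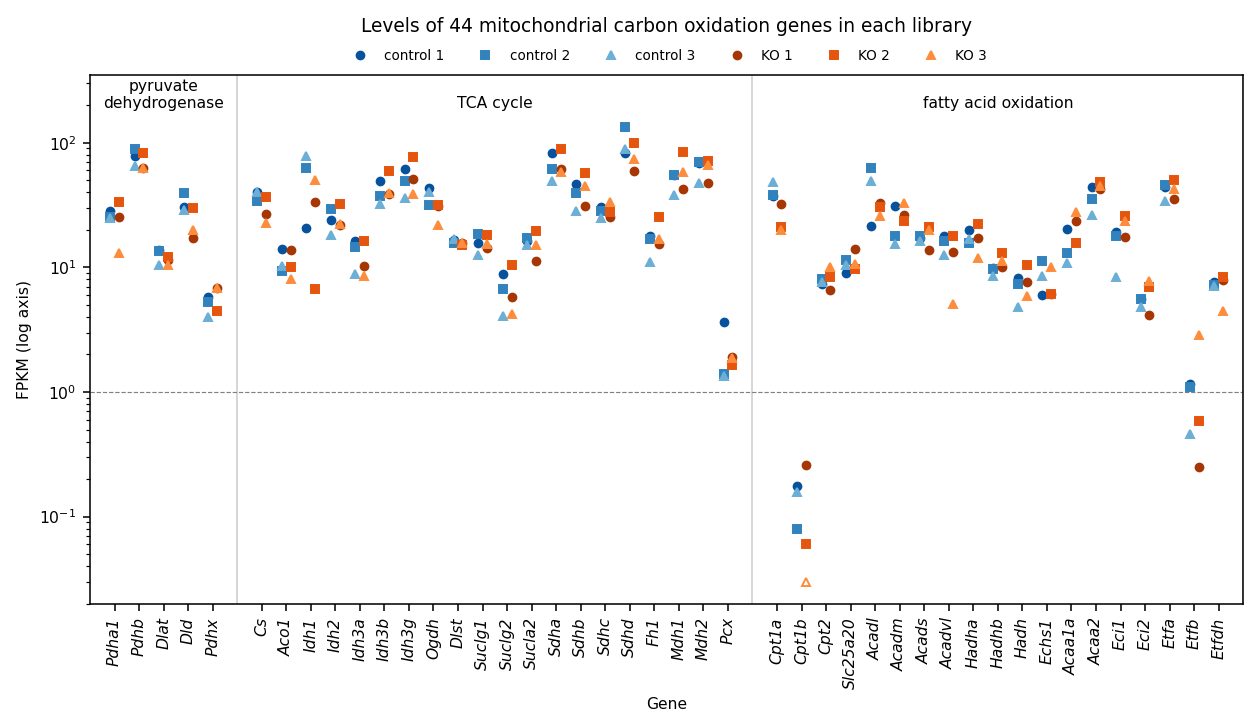
Each point is the FPKM of a gene in a library on a log axis, with controls in blue to the left and KO libraries in orange to the right of each gene name. The open symbol marks Cpt1b in KO 3, listed at 0 and drawn near the foot of the axis, and the dashed line is at 1 FPKM. Most genes lie between 5 and 100 FPKM in all libraries.

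KO 2 and control 3 stood at the ends of the range more often than other libraries. KO 2 was the highest library for 20 of the 43 genes, or 46.5%, and for 16.7% of all tested genes. Control 3 was the lowest for 20 of 43, also 46.5%, and for 22.8% of all tested genes. Among TCA cycle genes, KO 2 was highest for 10 of 20 and control 3 lowest for 11 of 20. KO 2 had the highest mean of the T cell markers (7.36) and control 3 the lowest (4.88), and the part of cell make-up in the members' values was not tested.

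The pyruvate dehydrogenase complex is built from E1 (Pdha1, Pdhb), E2 (Dlat), E3 (Dld) and the E3-binding protein (Pdhx). Dld, the dihydrolipoamide dehydrogenase that this complex shares with 2-oxoglutarate dehydrogenase, had control levels of 30.3, 39.3 and 29.1 FPKM and KO levels of 17.1, 30.05 and 19.97. KO 1 and KO 3 were below all controls, while KO 2 lay within the control range. The log2 difference was -0.56 (SE 0.27), with an adjusted p of 0.417 by limma, and -0.12 without KO 1 and 3. Pdhb, the E1 beta subunit, measured 77.8, 89.6 and 65.7 FPKM across controls, against 62.4, 82.7 and 63.2 across KO libraries, and the groups overlapped. Pdha1, the E1 alpha subunit encoded on chromosome X, was at 28.6, 25.3 and 25.1 FPKM over the controls, compared with 25.6, 33.6 and 13.1 over KO. KO 2 was its highest and KO 3 its lowest library, and the latter value rests on 147 reads. Of the exon bases of Pdha1, 16.2% (GENCODE M21) also belong to Map3k15 on the other strand, and how shared reads were counted is not given in the sources used here.

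Pdhx had control levels of 5.78, 5.27 and 4.03 FPKM and KO levels of 6.77, 4.49 and 6.78, with KO 1 and 3 above and KO 2 within the control range. Dlat, the acetyltransferase core, varied little, from 10.4 to 13.9 FPKM. The ratio of Pdha1 to Pdhb, whose proteins pair in equal numbers, took values of 0.367, 0.282 and 0.382 over the controls, compared with 0.410, 0.407 and 0.207 over KO, so KO 3 was lowest. Across the 5 subunits, 4 estimates were lower and 1 higher in KO (5 and 0 after quantile normalization), with a median log2 difference of -0.16. Leaving out control 2 and 3 gave a median of -0.27, against -0.04 without KO 1 and 3 and -0.33 after quantile normalization. Relative to all tested genes it was -0.26 with FPKM as deposited and -0.21 after quantile normalization. Relative to protein-coding genes alone, with FPKM as deposited, it was -0.18.

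In the TCA cycle, 10 of 20 estimates were higher and 10 lower in KO, with a median of 0.01. This was -0.09 relative to all tested genes and -0.008 relative to protein-coding genes alone. After quantile normalization the split was 6 to 14. Leaving out control 2 and 3 gave a median of -0.13, against 0.23 without KO 1 and 3 and -0.19 after quantile normalization. At the entry, Cs, the citrate synthase, measured 40.6, 34.04 and 39.9 FPKM across controls, against 26.9, 36.9 and 22.9 across KO libraries. KO 1 and 3 were below all controls and KO 2 was not, and the log2 difference was -0.41 (SE 0.23), or -0.045 without KO 1 and 3. Ogdh, the E1 subunit of 2-oxoglutarate dehydrogenase, was at 43.4, 31.4 and 40.6 FPKM over the controls, compared with 31.0, 31.5 and 21.7 over KO. Its groups overlapped by the narrow gap between control 2 and KO 2, and the log2 difference was -0.45 (SE 0.24; adjusted p = 0.421 by limma).

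Idh1 (ENSMUSG00000025950) varied more over the libraries than any other tested member. It had control levels of 20.8, 62.5 and 78.5 FPKM and KO levels of 33.8, 6.71 and 50.1, a ratio of 11.7 between the highest and lowest library. Control 2 and 3, where neutrophil and erythroid markers were highest and T cell markers lowest, were the highest libraries. KO 2, where macrophage, neutrophil and erythroid markers were lowest and T cell markers highest, was the lowest. The log2 difference was -1.003 (SE 0.82), but 0.13 without control 2 and 3 and -2.64 without KO 1 and 3. Idh2, the mitochondrial NADP-dependent isoform, measured 18.2 to 32.1 FPKM and was highest in KO 2. The ratio of Idh2 to Idh1 was 1.16, 0.471 and 0.232 in the controls and 0.642, 4.78 and 0.442 in the KO libraries, above 1 only in control 1 and KO 2. The part of non-T cells in the values of Idh1 was not tested.

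The NAD-dependent isocitrate dehydrogenase consists of Idh3a, its catalytic subunit, with Idh3b and Idh3g. Idh3a measured 16.4, 14.5 and 8.82 FPKM across controls, against 10.3, 16.2 and 8.53 across KO libraries, with a log2 difference of -0.18, or 0.31 without KO 1 and 3. Idh3b and Idh3g were higher than Idh3a in all 6 libraries, at 32.5 to 59.1 and 35.7 to 76.6 FPKM, and all 3 had lower values in control 3 than in control 1 and 2. Succinyl-CoA ligase joins Suclg1 with either Sucla2 (ATP-forming) or Suclg2 (GTP-forming). Sucla2 exceeded Suclg2 in all 6 libraries, with a Suclg2 to Sucla2 ratio of 0.537, 0.386 and 0.270 in the controls and 0.515, 0.541 and 0.280 in the KO libraries.

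Succinate dehydrogenase has a flavoprotein (Sdha), an iron-sulphur subunit (Sdhb) and membrane anchors (Sdhc, Sdhd). Sdhd was at 83.0, 134 and 89.7 FPKM over the controls, compared with 59.9, 99.8 and 74.1 over KO, a log2 difference of -0.39 (SE 0.29) and of -0.0017 without KO 1 and 3. Sdha, Sdhb and Sdhc had log2 differences of 0.11, 0.20 and 0.04, and their groups overlapped. The ratio of Sdha to Sdhb was between 1.28 and 2.01, and KO 3 was lowest. Fh1, the fumarase, and Mdh1 had the most positive differences of the cycle, 0.31 (SE 0.29) and 0.28 (SE 0.31), with KO 2 highest for both. Mdh2, the mitochondrial malate dehydrogenase, exceeded Mdh1 in all libraries but KO 2, where the ratio was 0.847. Pcx, the pyruvate carboxylase, was low, with means of 2.13 ± 1.30 FPKM over controls and 1.81 ± 0.147 over KO (SD, n = 3 each), and Aco1 measured 8.14 to 13.98 FPKM.

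Fatty acid oxidation genes had 12 higher and 6 lower estimates among 18 tested (5 and 13 after quantile normalization), with a median of 0.08. This was -0.02 relative to all tested genes and 0.06 relative to protein-coding genes alone. Leaving out control 2 and 3 gave a median of 0.05, against 0.20 without KO 1 and 3 and -0.11 after quantile normalization. Cpt1a (ENSMUSG00000024900), the carnitine palmitoyltransferase of the outer membrane, had the largest difference of these genes. It had control levels of 37.2, 38.3 and 48.7 FPKM and KO levels of 32.2, 21.1 and 20.05. Every KO library was below every control, which held for 9.44% of all tested genes, and KO 1 lay nearest to the controls. The log2 difference was -0.76 (SE 0.25; 95% interval -1.37 to -0.15; adjusted p = 0.417 by limma). Leaving out control 2 and 3 gave -0.62, and leaving out KO 1 and 3 gave -0.93. Cpt1a was highest in control 3, where neutrophil markers were highest. Control 1 and 2 had similar Cpt1a levels, with summed neutrophil markers of 424 and 15720 FPKM, and KO 3 was lowest, with 623. The part of non-T cells in the values of Cpt1a was not tested.

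Upstream sequence of Cpt1a is shown with that of Hadhb, the other gene whose groups did not overlap, and of Idh1 and Acadl, for which control 2 and 3 were the highest libraries. Each ends at the base before a RefSeq start of the gene, on the strand of the gene (GRCm38.p6): chr19:3323051-3323300 (plus strand) for Cpt1a, chr5:30155163-30155252 (plus) for Hadhb, chr1:65186480-65186682 (minus) for Idh1 and chr1:66863310-66863559 (minus) for Acadl. That of Hadhb is the whole stretch back to the GENCODE start of Hadha, which is transcribed the other way, and that of Idh1, at 1 of its 2 starts in the table, reaches back to the start of Pikfyve. Capitals mark matches to GGGCGG (SP1) or CCAAT (the CCAAT box) on either strand.
Cpt1a: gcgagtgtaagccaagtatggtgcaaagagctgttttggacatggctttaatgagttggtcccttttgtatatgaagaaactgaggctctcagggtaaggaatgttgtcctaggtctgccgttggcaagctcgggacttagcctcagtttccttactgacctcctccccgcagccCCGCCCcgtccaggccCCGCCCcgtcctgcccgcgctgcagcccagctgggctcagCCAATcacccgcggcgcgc
Hadhb: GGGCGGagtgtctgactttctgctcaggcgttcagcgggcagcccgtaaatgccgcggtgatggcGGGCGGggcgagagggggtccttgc
Idh1: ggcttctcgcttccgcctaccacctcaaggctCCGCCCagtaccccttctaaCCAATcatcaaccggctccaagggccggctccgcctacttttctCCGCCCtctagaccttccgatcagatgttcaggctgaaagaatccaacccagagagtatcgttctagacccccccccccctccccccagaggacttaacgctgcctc
Acadl: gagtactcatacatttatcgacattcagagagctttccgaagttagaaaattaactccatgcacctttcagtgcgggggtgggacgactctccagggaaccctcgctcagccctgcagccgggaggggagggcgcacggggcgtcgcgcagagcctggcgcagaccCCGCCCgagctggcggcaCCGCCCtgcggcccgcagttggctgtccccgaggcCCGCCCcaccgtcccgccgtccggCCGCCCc
GGGCGG was found in all 4 stretches, and CCAAT in those of Cpt1a and Idh1.

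Promoter windows of 250 bases before to 50 after the start were matched for 40 of the 44 genes, and 8 motifs were searched on both strands. No motif contains another, but the last 6 letters of TCAAGGTCA also form the repeat bound by PPAR. GGGCGG was in 31 of 40 genes (77.5%) and in 49.2% of 17491 protein-coding genes, and CCAAT in 21 of 40 (52.5%) against 42.3%. CCGGAAG, the core of ETS factors such as GABP, was in 7 of 40 (17.5%) against 12.9%: Dlst, Idh3b, Idh3g, Sdhb, Sdhd, Cpt2 and Slc25a20. TCAAGGTCA, bound by oestrogen-related receptors, was in Sdhd alone (2.5% against 0.377%), the consensus of NRF1 in Etfdh alone (2.5% against 1.47%), and that of YY1 in Idh3g alone (2.5% against 1.41%). CACGTG, the E-box, was in Ogdh and Pcx (5% against 8.91%), and the direct repeat bound by PPAR in none (0% against 0.0572%). A match is a description of letters, not a binding site.

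Cpt1b, the muscle isoform of the outer enzyme, had 7, 4 and 8 implied reads over the controls and 3, 3 and 0 over KO. A count of 0 in KO 3 allows up to 0.296 FPKM (3 reads, counting error only), above its level in all controls. The ratio of Cpt1a to Cpt1b was 123.9 or more in the 5 libraries with a Cpt1b read. Of the exon bases of Cpt1b, 81.4% are shared in GENCODE M21 with Gm44502 on the same strand. Gm44502 was not found among the genes with deposited values. Whether it was in the annotation used for counting is not given in the sources used here. Cpt2, the inner-membrane partner, and Slc25a20, the carnitine-acylcarnitine carrier, measured 6.60 to 10.02 and 9.07 to 14.1 FPKM, with overlapping groups.

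The acyl-CoA dehydrogenases start each round and differ in chain length. Acadl, for long chains, measured 21.6, 62.8 and 48.9 FPKM across controls, against 32.8, 30.7 and 25.9 across KO libraries. Control 2 and 3 were above all KO libraries and control 1 below them, and the log2 difference was -0.44 (SE 0.40), or 0.44 without control 2 and 3. Acadm, for medium chains, showed a different order, with 31.1, 17.7 and 15.4 FPKM in the controls and 26.5, 23.6 and 32.6 in the KO libraries. Its log2 difference was 0.40 (SE 0.31), and -0.18 without control 2 and 3, where neutrophil and erythroid markers were high and T cell markers low. The part of non-T cells in these values was not tested.

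Acadvl, for very long chains, was at 17.9, 16.3 and 12.7 FPKM over the controls, compared with 13.3, 17.9 and 5.08 over KO. KO 3, with 41 reads, stood below the rest, and the log2 difference was -0.48 (SE 0.45), or 0.20 without KO 1 and 3. Its exon bases overlap those of Dvl2 on the other strand over 42.9%, and Dvl2 itself measured 9.35 to 16.1 FPKM. Acads, for short chains, measured 13.8 to 20.98 FPKM with overlapping groups.

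**Figure D3:**
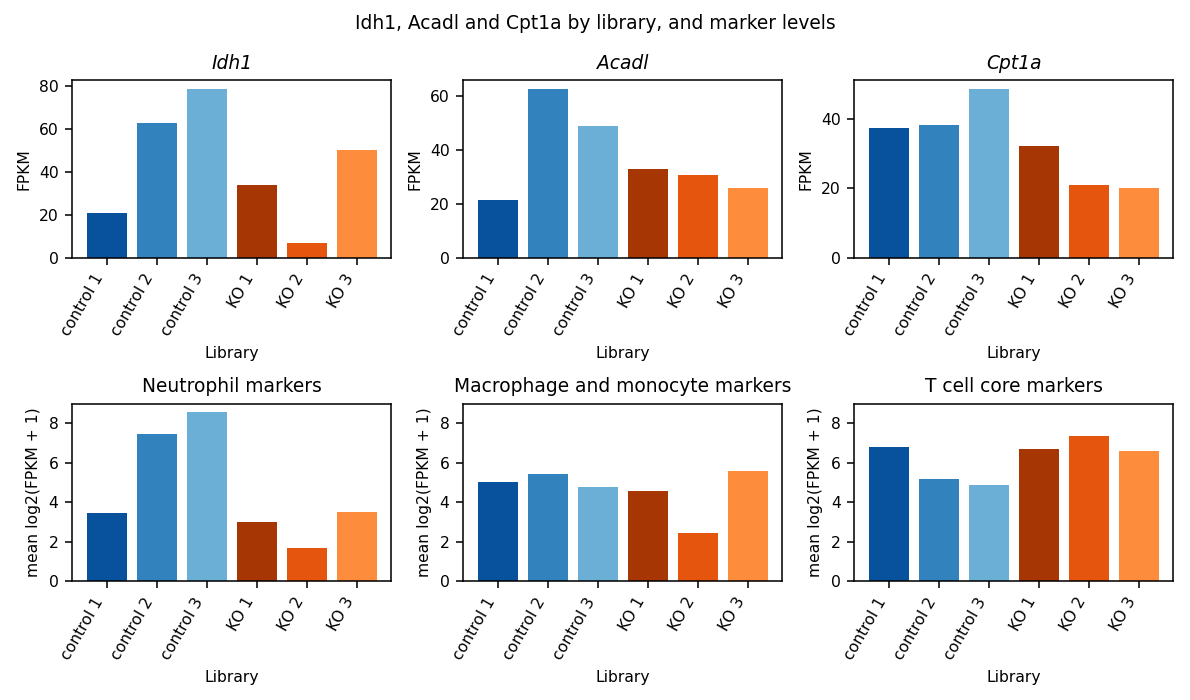
The upper bars give FPKM of Idh1, Acadl and Cpt1a in each library, and the lower bars the mean log2(FPKM + 1) of neutrophil, macrophage and monocyte, and T cell markers. Idh1 and Acadl are highest in control 2 and 3, Idh1 more so in control 3 and Acadl in control 2. Neutrophil markers average 7.44 and 8.60 there, T cell markers are lowest there, and erythroid markers, not drawn, were highest there. Cpt1a is above 37 FPKM in all controls, highest in control 3, and below 33 in all KO libraries. The part of non-T cells in the levels of the genes shown was not tested.

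The trifunctional protein is formed by Hadha and Hadhb, whose genes lie head to head (starts 86 bases apart in GENCODE M21). Hadhb, the thiolase subunit, had control levels of 9.94, 9.63 and 8.55 FPKM and KO levels of 10.1, 13.03 and 11.2, so every KO library was above every control, as for 6.7% of all tested genes. The gap between KO 1 and control 1 was small, and the log2 difference was 0.26 (SE 0.22; adjusted p = 0.565 by limma), or 0.03 after quantile normalization. Hadha, with the hydratase and dehydrogenase activities, measured 11.9 to 22.3 FPKM and had a log2 difference of -0.06. The ratio of Hadha to Hadhb took values of 2.01, 1.62 and 1.96 over the controls, compared with 1.71, 1.71 and 1.06 over KO, lowest in KO 3.

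Later steps included thiolases and isomerases with higher estimates in KO. Acaa1a measured 20.4, 13.2 and 10.9 FPKM across controls, against 23.5, 15.7 and 27.97 across KO libraries, a log2 difference of 0.57 (SE 0.33) and of 0.09 without control 2 and 3. Acaa2, the mitochondrial thiolase, was at 44.04, 35.4 and 26.3 FPKM over the controls, compared with 42.7, 48.4 and 44.8 over KO, a log2 difference of 0.38 (SE 0.24) and of 0.04 without control 2 and 3. Eci1, an enoyl-CoA isomerase for unsaturated fatty acids, had control levels of 19.2, 17.9 and 8.41 FPKM and KO levels of 17.4, 25.8 and 23.5, a log2 difference of 0.58 (SE 0.36) and of 0.18 without control 2 and 3. For all 3, control 1 was the highest control and lay within the KO range, so the groups overlapped. Hadh, the short-chain hydroxyacyl-CoA dehydrogenase, Echs1, the short-chain hydratase, and Eci2 measured 4.82 to 10.5, 6.01 to 11.3 and 4.12 to 7.81 FPKM, with overlapping groups.

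The electron transfer flavoprotein, which takes electrons from acyl-CoA dehydrogenases, pairs Etfa with Etfb. Etfa measured 33.9 to 50.7 FPKM, while Etfb was at 1.16, 1.09 and 0.457 FPKM over the controls (16, 19 and 8 reads), compared with 0.251, 0.585 and 2.86 over KO (1, 10 and 10 reads). The ratio of Etfa to Etfb, 14.97 to 141.5, is large for proteins that pair in equal numbers. Of the exon bases of Etfb, 58.3% are shared in GENCODE M21 with Gm45233 on the same strand. Gm45233 was likewise not found among the genes with deposited values, and its place in the counting annotation is unknown. The part of this overlap in the low value of Etfb was not tested. Etfdh, the dehydrogenase that passes these electrons to ubiquinone, was at 7.63, 7.27 and 7.15 FPKM over the controls, compared with 7.87, 8.40 and 4.43 over KO. All controls lay within 0.5 FPKM of each other, and KO 3 was lowest.

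The sign of an estimate often depended on which libraries were used. Without control 2 and 3, 13 of 43 estimates changed sign, without KO 1 and 3, 11 did, and 23 did in at least 1 of these settings. The share among all tested genes was not computed, so these counts do not set the members apart from other genes. A total of 15 genes kept their sign in both settings and after quantile normalization: Dlat, Dld, Cs, Aco1, Ogdh, Dlst, Sdhd, Pcx and Cpt1a with lower and Fh1, Mdh1, Hadhb, Acaa1a, Acaa2 and Eci1 with higher estimates. These settings share libraries with the full comparison, so a kept sign is no independent evidence. Some kept signs rest on values near 0, such as -0.0017 for Sdhd without KO 1 and 3. Leaving out control 1 let 363 of all tested genes pass (2.6%), and leaving out KO 2 let 1821 pass (13%), but 0 of the 43 members in either case, with smallest adjusted p of 0.101 and 0.128 by limma (0.101 to 0.802 over the 12 alternatives that were tested).

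**Figure D4:**
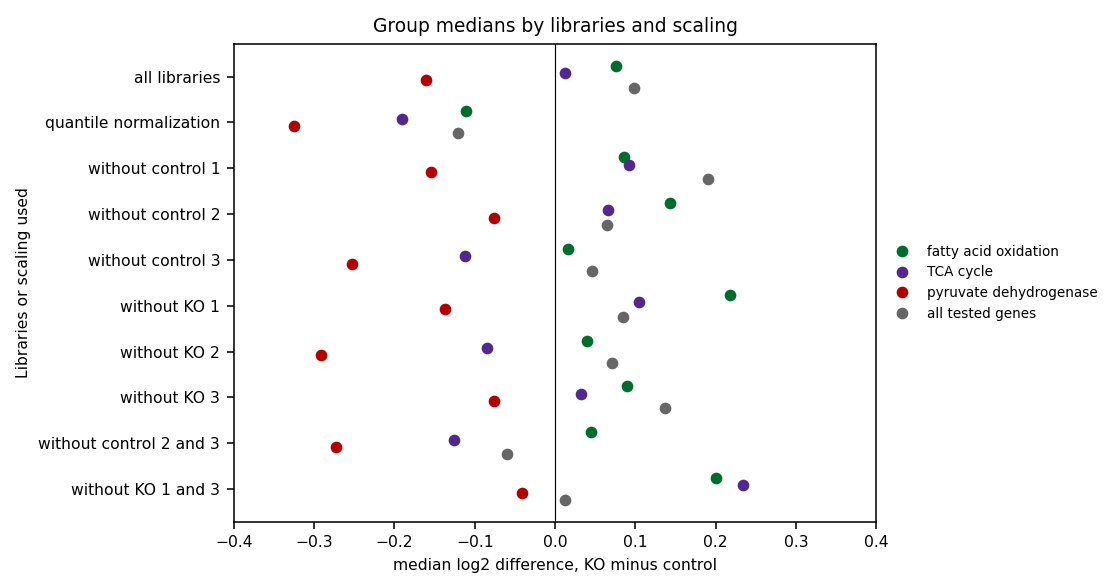
Points are medians of the log2 differences, KO minus control, over the tested genes of each group and over all 13956 tested genes, for all libraries, after quantile normalization, and with libraries left out. The pyruvate dehydrogenase median is below 0 in each setting shown, from -0.33 to -0.04, and the TCA cycle median lies between -0.19 and 0.23.

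A further 60 genes around these pathways were listed, of which 52 were tested, and 0 passed. Estimates were higher for 25 and lower for 27, with a median log2 difference of -0.07. This was -0.16 relative to all tested genes and -0.08 relative to protein-coding genes alone. After quantile normalization 16 were higher and 36 lower, with a median of -0.29, or -0.17 relative to all. A total of 12 of 52 (23.1%) had groups that did not overlap, 4 higher and 8 lower in KO, against 16.1% of all tested genes. At an unadjusted p under 0.05 there were 8 (15.4%, against 11.8%), which became 14 without control 1, 13 without KO 2, 4 without control 2 or control 3 and 5 without KO 1 or KO 3, and limma-voom on implied reads also passed 0. In the control of pyruvate entry, Pdk1, a kinase that inhibits pyruvate dehydrogenase, had control levels of 5.44, 6.13 and 5.76 FPKM and KO levels of 26.8, 31.8 and 22.03. Its log2 difference was 2.03 (SE 0.23; adjusted p = 0.310 by limma), and the adjusted p over all alternatives ran from 0.00418 (KO 2 left out) to 0.802, with 0.0287 when control 1 was left out. Pdp2, a phosphatase that reverses this inhibition, measured 3.38, 2.33 and 2.40 FPKM across controls, against 8.73, 3.58 and 9.53 across KO libraries. Its log2 difference was 1.08 (adjusted p = 0.417 by limma, with 0.0173 to 0.802 over the alternatives, lowest without KO 2), and 0.32 without KO 1 and 3. The pyruvate carrier subunits Mpc1 and Mpc2 averaged 3.78 ± 1.58 and 6.18 ± 1.49 FPKM over controls and 2.58 ± 0.671 and 4.57 ± 0.918 over KO (SD, n = 3 each).

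Of the 9 tested genes of the wider TCA cycle and its supply, 7 had lower and 2 higher estimates, while 56.9% of all tested genes had higher ones. The median was -0.41, or -0.51 relative to all tested genes and -0.43 relative to protein-coding genes alone. It was -0.33 without control 2 and 3, -0.04 without KO 1 and 3, and -0.54 after quantile normalization, with 8 of 9 lower. Acsl1, which activates long-chain fatty acids ahead of Cpt1a, was at 7.07, 7.42 and 11.9 FPKM over the controls, compared with 2.12, 2.85 and 1.81 over KO. Every KO library was below every control, and its log2 difference was -1.57 (SE 0.31; adjusted p = 0.417 by limma, with 0.0165 to 0.802 over the alternatives, lowest without KO 2). Crat, a carnitine acetyltransferase, had control levels of 4.56, 9.02 and 10.8 FPKM and KO levels of 2.82, 2.02 and 2.97, and Acsl4 17.3 ± 5.48 and 8.48 ± 3.02 FPKM (SD, n = 3 each). The log2 differences of Crat and Acsl4 were -1.28 and -0.95. Without control 2 and 3, where neutrophil and erythroid markers were high and T cell markers low, they were -0.64 and -0.45. That of Acsl1 was -1.32 in this setting. Without KO 1 and 3, the differences of Acsl1, Crat and Acsl4 were -1.31, -1.52 and -0.49. The part of non-T cells in the values of Acsl1, Crat and Acsl4 was not tested.

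Tfam, a transcription factor of mitochondrial DNA, measured 14.4, 11.04 and 8.33 FPKM across controls, against 20.4, 19.3 and 23.3 across KO libraries. Every KO library was above every control, with a log2 difference of 0.87 (SE 0.25; adjusted p = 0.417 by limma), or 0.51 without control 2 and 3. Of the 8 genes too low to test, 3 were above 1 FPKM in KO 1 and KO 3 only, the shallow libraries with the most genes detected, and were named for this reason after their values were seen. Ogdhl, a relative of Ogdh, measured 6.87 and 6.66 FPKM there and 0.0964 to 0.710 elsewhere, Ppargc1a, a coactivator of mitochondrial genes, 1.77 and 2.22 against 0.0101 to 0.346, and Ppara, a regulator of fatty acid oxidation, 1.68 and 2.52 against 0 to 0.226.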

How the data were processed

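RNA-seq of 6 libraries was analysed from the deposited FPKM values, 1 file per library. The submitters' processing notes list mm8, HTSeq 0.6.0, HISAT2 2 and Bowtie2 2.2.3. How the authors made FPKM values from reads, on which annotation and with or without strand, is not given in the sources used here, and the unit was inferred from the numbers themselves. Of 35458 identifiers, 35313 matched GENCODE M21 (GRCm38), which gave symbols and exon lengths.

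FPKM multiplied by exon length fell on whole multiples of a step per library, within 0.02 read for 92.1% to 93.4% of values under 200 reads and for 39 of the 44 genes in all libraries. For the other 5 (Pdhb, Pcx, Cpt1a, Acaa2, Eci1) no read number is given. No pair of libraries of a group agreed within sampling noise.

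The 13956 genes that reached 1 FPKM in 3 or more libraries were tested as log2(FPKM + 1) with limma 3.58.1 (R 4.3.3), an intensity trend and genotype alone in the model, and p-values were adjusted by Benjamini-Hochberg (threshold 0.05). The procedure was run on simulated reads with no differences in cell make-up between libraries, so that run does not measure how it performs on these libraries. An exact permutation test of 3 against 3 cannot go below 0.1 and was not used. The genes, lists and tests were chosen with earlier results of these data known. Reported with values in every library were genes whose groups did not overlap, the 4 of smallest p in each group, and up to 6 whose sign changed without control 2 and 3 or KO 1 and 3. Dlst (narrowest spread), Etfb (few reads), Etfdh and Cpt1b were added after their values were seen. For the other listed genes around these pathways the 6 of smallest p, Pdk1 among them, were taken with Mpc1 and Mpc2, and another gene that the rule lists is not reported here. Upstream sequences are from RefSeq (GRCm38.p6). Python 3.11.15, pandas 2.3.3, numpy 2.4.6, scipy 1.17.1 and matplotlib 3.10.9 were used.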

Additional observations from a re-analysis of the deposited data

How the results depend on the processing

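Of the 44 genes, 0 passed in each of the 12 alternatives with at least 2 libraries per group: quantile normalization, no filter on low values, a smaller pseudocount (0.1), a replicate block, protein-coding genes only, limma-voom on implied reads, and each library left out. Over all tested genes, leaving out 1 library gave 0 to 1821 genes, and over the 52 genes around the pathways 0 to 3. With 1 library left in a group, no test of the genotypes was counted. Deviations from group means correlated at 0.112, 0.0202 and 0.0175 between same-numbered libraries and at -0.207 to 0.139 between others. These values cannot decide whether same-numbered libraries were paired. The replicate block passed 0 genes, with 0 members at an unadjusted p under 0.05.

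Leaving out 1 library, group medians ranged from -0.29 to -0.08 for pyruvate dehydrogenase, from -0.11 to 0.11 for the TCA cycle and from 0.017 to 0.22 for fatty acid oxidation. After quantile normalization the TCA cycle and fatty acid oxidation medians were -0.19 and -0.11, and without KO 1 and 3 they were 0.23 and 0.20. Quantile normalization reversed the sign of 12 of the 43 tested members, Pdhx (-0.068) among them. With single libraries left out, Pdha1 ranged from -0.49 to 0.15 and Idh3a from -0.43 to 0.0045, both reversed without KO 3. Leaving out KO 1 and 3 reversed 11 members, with Pdhb (0.10), Pdhx (-0.12), Pdha1 (0.34), Acadvl (0.20) and Idh3a (0.31) among them. Leaving out control 2 and 3 reversed 13 members, with Idh1 (0.13), Acadl (0.44) and Acadm (-0.18) among them. It also reversed Mpc2 (0.0095), which is not a member. The cause of these shifts was not tested, and the share of all tested genes reversed was not computed. Counting error limits Cpt1b and Etfb most, and KO 1 and 3 for every gene.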
